A study of Mus musculus with 16 samples.

Results

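Neurexins, neuroligins and leucine-rich repeat transmembrane proteins (LRRTMs) join the 2 sides of a synapse, and 7 genes for them were read out in CA1 of mice with and without Fmr1. They are the neurexin genes Nrxn2 and Nrxn3, the neuroligin genes Nlgn1, Nlgn2 and Nlgn3, and Lrrtm1 and Lrrtm2. They were picked by symbol, and all 7 of the 46403 symbols in the tables were found, with 48 of the 111706 transcripts. The tissue was the CA1 subfield of the hippocampus, taken from 8 Fmr1-KO and 8 WT mice, the WT strain being given as C57BL/6. All 16 served as yoked controls in active place avoidance, a task in which yoked animals are given the shocks of a trained animal without being able to avoid them. The labels give neither age nor sex and do not tell whether the mice were littermates. They put a different pair of animal number and letter on every library, and the p-values measure the spread between animals so labelled. Up to 2 animals of a genotype share a number, and the labels do not say what a shared number means. The tests took all 16 as independent. No number occurs in both genotypes, so anything tied to the number cannot be told apart from genotype.

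Neurexins sit in the presynaptic membrane. Each neurexin gene has an upstream promoter for a long alpha form and an inner promoter for a short beta form, and its transcripts are spliced at several sites. Splice site 4 lies in the last of the extracellular domains, and its insert changes which partners a neurexin binds. Neuroligins and LRRTMs are postsynaptic ligands of neurexins. Neuroligin 1 is known from excitatory synapses, neuroligin 2 from inhibitory synapses and neuroligin 3 from both, whereas LRRTM1 and LRRTM2 act at excitatory synapses and bind neurexins without the site 4 insert. Neuroligins are spliced at site A and, in neuroligin 1, also at site B, where an insert reduces the binding of alpha-neurexins. FMRP, the protein of Fmr1, binds many neuronal mRNAs and represses their translation, so RNA levels alone show only part of what it does.

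Inserts that separate compared transcripts of Nrxn3 and the neuroligin genes are shown here because the splice comparisons turn on them. Capitals mark the insert and lower case the 15 transcript bases on either side. They were read 5′ to 3′ from the GENCODE M21 transcripts (GRCm38), and all lie in coding sequence. The site 4 exon of Nrxn3 is a cassette exon of 90 bases at chr12:90199147-90199236 on the plus strand.
Nrxn3 site 4: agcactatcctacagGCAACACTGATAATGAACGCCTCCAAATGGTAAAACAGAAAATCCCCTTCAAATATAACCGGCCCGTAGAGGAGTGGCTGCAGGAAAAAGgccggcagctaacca

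The neuroligin inserts are a site A exon of 60 bases in Nlgn1 (chr3:25920178-25920237, minus strand), a site B stretch of 27 bases in Nlgn1 (chr3:25439865-25439891, minus strand) and a site A exon of 51 bases in Nlgn2 (chr11:69830563-69830613, minus strand). Nlgn3 has a pair of site A exons of 60 bases each (chrX:101303072-101303131 and chrX:101307075-101307134, plus strand). The site A exon of Nlgn1 and the second one of Nlgn3 are identical at 43 of 60 positions.
Nlgn1 site A: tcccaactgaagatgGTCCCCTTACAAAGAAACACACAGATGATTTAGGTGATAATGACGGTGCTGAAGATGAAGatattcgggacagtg
Nlgn1 site B: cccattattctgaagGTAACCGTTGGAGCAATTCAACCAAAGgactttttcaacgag
Nlgn2 site A: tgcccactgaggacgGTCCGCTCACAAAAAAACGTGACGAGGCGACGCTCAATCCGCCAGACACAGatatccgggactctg
Nlgn3 site A, first: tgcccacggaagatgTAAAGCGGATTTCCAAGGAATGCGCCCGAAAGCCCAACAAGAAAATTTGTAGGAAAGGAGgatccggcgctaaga
Nlgn3 site A, second: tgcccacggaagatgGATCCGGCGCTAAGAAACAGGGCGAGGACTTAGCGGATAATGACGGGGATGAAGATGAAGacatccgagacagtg

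The deposited tables hold estimated counts, that is, reads shared out over transcripts by a model. They also hold TPM, a measure of relative transcript abundance, which are scaled by transcript length. Estimated counts are not scaled so, and shares of counts weight long transcripts more than short ones. They are therefore not shares of molecules. Fmr1-KO libraries held 1480966 to 2979481 estimated counts and WT libraries 2126632 to 3275003, apart from WT replicates 3 and 6, which stood apart with 878484 and 515103. Those 2 libraries also differed in composition. Protein-coding transcripts held 80.7% and 58.4% of their counts, against 87.6% to 91.8% in all other libraries. The 10 genes with the most counts held 10.3% and 31.6%, against 3.73% to 6.06% in all other libraries. Gene levels, shares and list medians were therefore also computed without them. Levels are CPM, that is, counts relative to the library total after TMM scaling, as mean ± SD over 8 libraries a genotype unless said otherwise. Fmr1 itself had a mean level of 22.2 ± 7.08 CPM in the Fmr1-KO mice, against 58.1 ± 19.4 CPM in the WT mice, with no overlap (log2 fold change −1.41, SE 0.22, adjusted p = 0.0112). The summed level of 8 CA1 pyramidal markers spanned 8004 to 9143 CPM in Fmr1-KO and 7567 to 10090 CPM in WT libraries, and no marker of any list was at 0 in every library. Every tested marker of 5 glial and vascular lists had a negative fold change, with median log2 fold changes of −0.39 for astrocytes, −0.38 for oligodendrocytes, −0.52 for their precursors, −0.31 for microglia and −0.55 for endothelium and pericytes. Without WT replicates 3 and 6 these medians were −0.10, −0.37, −0.14, −0.14 and −0.39. The summed astrocyte markers spanned 415 to 510 CPM in Fmr1-KO and 383 to 1450 CPM in WT libraries (383 to 593 CPM without WT replicates 3 and 6), and the summed interneuron markers spanned 185 to 386 CPM in Fmr1-KO and 219 to 393 CPM in WT libraries. Of the 8 interneuron markers, 6 had negative and 2 positive fold changes, with a median log2 fold change of −0.27, or −0.071 without WT replicates 3 and 6. The 3 tested markers of dentate granule cells were all negative, with a median of −0.33, or 0.14 without those WT replicates. The part of such cell types in the values of the adhesion genes was not tested. In such bulk tissue fewer cells of a type cannot be told apart from less RNA per cell.

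None of the 7 genes passed the threshold of an adjusted p under 0.05 (edgeR quasi-likelihood test over all genes, Benjamini-Hochberg adjustment), and none had an unadjusted p under 0.05. DESeq2 and limma-voom likewise gave 0 called genes and 0 with an unadjusted p under 0.05 among the 7. Over all 11515 genes tested, 2 passed, Fmr1 and Ccnd2 (0.0174%), and 7.89% had an unadjusted p under 0.05. All 7 genes entered the test, and the ranges of the genotypes overlapped in each of them, where 0.0434% of all genes had no overlap. Nrxn3, Nlgn1 and Lrrtm1 had positive fold changes, and Nrxn2, Nlgn2, Nlgn3 and Lrrtm2 negative ones. Their median log2 fold change was −0.0071, beside −0.012 over all genes tested, and it was 0.0083 without WT replicates 3 and 6. In that smaller set the log2 fold changes were 0.0083 for Nrxn2, 0.098 for Nrxn3, 0.062 for Nlgn1, −0.056 for Nlgn2, −0.064 for Nlgn3, 0.17 for Lrrtm1 and −0.10 for Lrrtm2. The 95% intervals put bounds on what could have been missed at this depth: the bounds farthest from 0, for Lrrtm2 and Lrrtm1, were log2 fold changes of −0.40 and 0.38, and those of Nrxn2 and Nlgn2 stayed between −0.17 and 0.15.

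**Figure D1:**
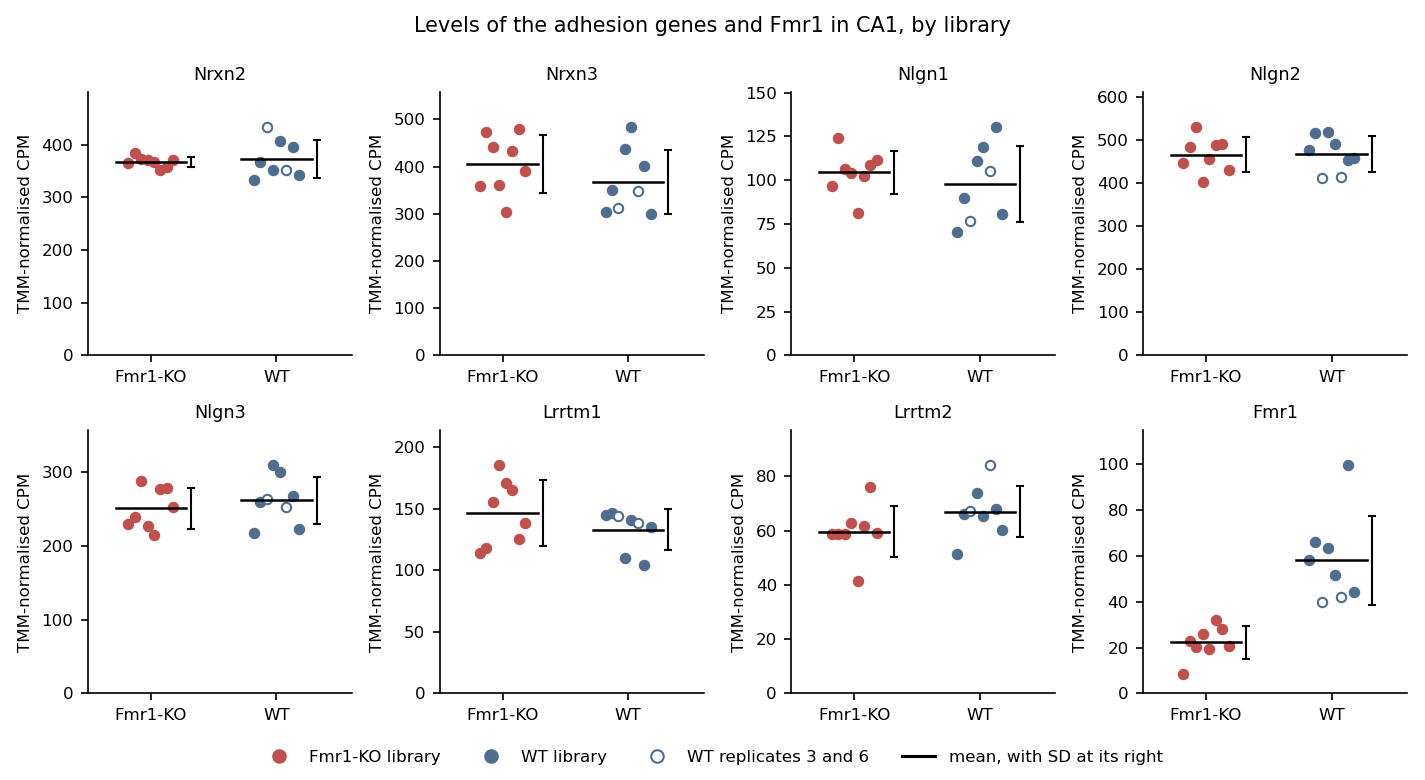
Level of each adhesion gene and of Fmr1 in TMM-normalised CPM (vertical axes, from 0), 1 point per library, Fmr1-KO at the left and WT at the right, with the mean and the SD of 8 libraries. The genotypes overlap in all 7 adhesion genes and do not overlap in Fmr1; open circles are WT replicates 3 and 6.

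Per transcript length the genes covered a wide range, and levels in TPM are used here only to order them. In Fmr1-KO libraries Nrxn2 came first at 231 ± 32.1 TPM, followed by Nlgn2 at 199 ± 34.5 TPM and Nrxn3 at 146 ± 29.2 TPM. Lrrtm1 had 108 ± 24.5 TPM, Nlgn3 had 86.4 ± 13.2 TPM, Nlgn1 had 39.0 ± 6.28 TPM and Lrrtm2 had 19.1 ± 3.83 TPM there. The first 5 of these overlapped their neighbours in the order within 1 SD, whereas Nlgn1 lay clear of Nlgn3 above it and of Lrrtm2 below it. In the 6 deeper WT libraries the order was the same, except that Nlgn3 at 93.1 ± 31.5 TPM and Lrrtm1 at 92.2 ± 25.9 TPM changed places. There Nrxn2 had 201 ± 23.7 TPM, Nlgn2 193 ± 51.7 TPM, Nrxn3 132 ± 38.1 TPM, Nlgn1 34.5 ± 7.27 TPM and Lrrtm2 19.7 ± 5.15 TPM. The balance between the neuroligin of inhibitory and that of excitatory synapses was close in the genotypes: the log2 ratio of Nlgn2 to Nlgn1 TPM was 2.35 ± 0.25 in Fmr1-KO and 2.37 ± 0.33 in WT libraries (SD, n = 8 each). The log2 ratio of Lrrtm1 to Lrrtm2 TPM was 2.49 ± 0.41 in Fmr1-KO and 2.19 ± 0.32 in WT libraries, and its ranges overlapped.

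Nrxn2 (chr19:6418731-6544169, plus strand) encodes a presynaptic neurexin. Its level had a lowest value of 352, a median of 369 and a highest value of 384 CPM in Fmr1-KO libraries, against 333, 360 and 435 CPM in WT libraries. The Fmr1-KO libraries thus lay inside the WT range. The means were 368 ± 9.51 CPM in Fmr1-KO against 373 ± 35.9 CPM in WT, or −0.020 as log2 fold change (SE 0.072, adjusted p = 0.963, edgeR).

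Behind that level, the share of alpha transcripts was lower in Fmr1-KO by a test of that share alone, which tests over all genes did not call. Of its 15 transcripts, 11 start upstream of the inner promoter and are called alpha here, 3 start at the first exon of the beta form, and 1 starts elsewhere. A pair of transcripts carried most of the counts. Nrxn2-004 is a beta transcript of 3503 bases in 7 exons that holds the site 4 exon, and it had 54.7% of the Nrxn2 counts. Nrxn2-008 is an alpha transcript of 5505 bases in 20 exons without the site 4 exon, and it had 32.2%. They share 1770 bases, and their last exons differ in length, at 1950 bases in Nrxn2-004 and 1011 bases in Nrxn2-008.

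The alpha share, the percentage of alpha plus beta counts that fell to alpha transcripts, ran from 31.9% over a median of 37.7% to 44.6% in Fmr1-KO libraries, against 42.0%, 47.2% and 60.3% in WT libraries. All 8 Fmr1-KO libraries lay below the WT median, though the ranges overlapped between 42.0% and 44.6%. The means were 38.3% ± 4.76 in Fmr1-KO and 48.5% ± 5.96 in WT (SD, n = 8 each), a difference of −10.1 percentage points (two-sided exact permutation test, p = 0.00186). The 6 deeper WT libraries averaged 46.1% ± 3.77, and the exact permutation p against them was 0.00799 (n = 8 and 6). With shares taken from TPM in place of estimated counts the exact permutation p was 0.0253, and leaving out each library in turn gave p between 0.00124 and 0.00373. Between 111 and 1269 estimated counts stood behind a library's share. It was the 1 of 14 compared shares with a p under 0.05, a proportion near the 6.10% of 3198 genes that had such a p when the share of each gene's largest transcript was tested in the same way. That comparison is made at the 0.05 cut and with another kind of share. It does not tell how often an exact permutation p as small as 0.00186 arose.

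Beta transcripts were higher and alpha transcripts lower in Fmr1-KO libraries in CPM, whereas in TPM the alpha sum was higher, at 64.8 ± 12.2 in Fmr1-KO and 56.6 ± 22.1 in WT libraries, as was the beta sum, at 162 ± 24.4 in Fmr1-KO and 99.1 ± 48.4 in WT libraries (SD, n = 8 each). TPM also raised the median log2 fold change of all genes, to 0.55 on log2(TPM + 1). The WT sums in TPM include WT replicates 3 and 6, in which Nrxn2 as a whole had 149 and 28.1 TPM. In the 6 deeper WT libraries it had 201 ± 23.7 TPM, and the alpha and beta sums in TPM were not computed for those alone. Beta transcripts summed to a lowest value of 204, a median of 224 and a highest value of 253 CPM in Fmr1-KO libraries, against 163, 190 and 206 CPM in WT libraries, so that the ranges met only at their edges. Their means were 226 ± 18.1 CPM in Fmr1-KO against 187 ± 16.7 CPM in WT (two-sided exact permutation test, p = 0.000466, n = 8 each), and 195 ± 9.75 CPM in the 6 deeper WT libraries (exact permutation p = 0.0020). Alpha transcripts summed to 118, 136 and 169 CPM at the lowest, the median and the highest Fmr1-KO library, against 146, 167 and 247 CPM in WT libraries. Their means were 141 ± 18.4 CPM in Fmr1-KO against 178 ± 35.7 CPM in WT (exact permutation p = 0.0124, n = 8 each), and 168 ± 26.6 CPM in the 6 deeper WT libraries (exact permutation p = 0.0460). The tests of these summed levels were added after the shares had been seen.

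**Figure D2:**
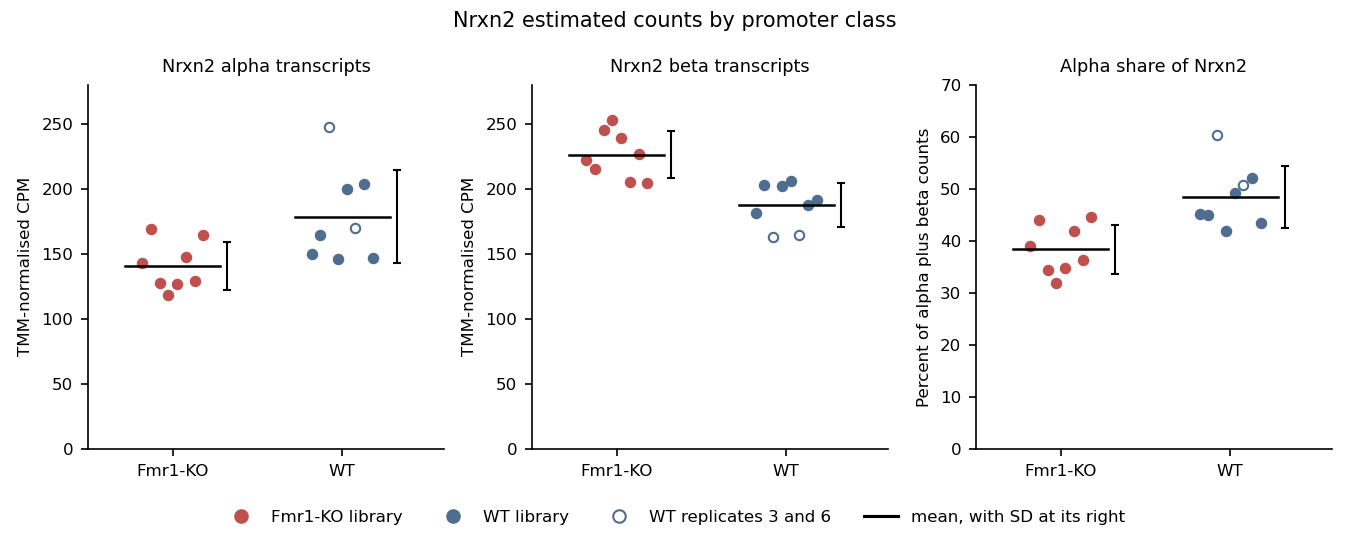
Summed level of the Nrxn2 alpha and beta transcripts in TMM-normalised CPM (left and middle) and the alpha share in percent of alpha plus beta counts (right), 1 point per library with mean and SD. Beta levels of Fmr1-KO libraries start at 204 CPM, close to the highest WT library at 206 CPM, and every Fmr1-KO alpha share lies below the WT median of 47.2%; open circles are WT replicates 3 and 6.

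Tests that ran over all genes did not call this difference. Nrxn2-004 averaged 225 ± 19.7 CPM in Fmr1-KO against 189 ± 19.7 CPM in WT libraries, higher than the WT median in 8 of 8 Fmr1-KO libraries, with a log2 fold change of 0.25 (SE 0.083) and an unadjusted p of 0.0080, but the adjusted p over 16772 transcripts was 0.9999 (edgeR), as for each of the other tested transcripts of these genes. DESeq2 gave Nrxn2-004 a log2 fold change of 0.22 and an adjusted p of 0.0765, which did not pass either. Nrxn2-008 averaged 118 ± 20.4 CPM in Fmr1-KO against 137 ± 21.0 CPM in WT libraries (log2 fold change −0.21, adjusted p = 0.9999, edgeR). Over all transcripts tested 1 passed (0.00596%), none of them from these genes, and 3.91% had an unadjusted p under 0.05, against 1 of the 23 tested transcripts of the 7 genes, which was Nrxn2-004. All 23 overlapped between the genotypes, where 0.0238% of all transcripts did not. A test of transcript use in 3467 genes (edgeR diffSpliceDGE) gave Nrxn2 a p of 0.201 and an adjusted p of 0.999, and none of the 6 genes with more than 1 tested transcript passed, where 2 genes did over all (0.0577%). On simulated counts that test recovered only a minority of large changes in transcript use and also made false calls, so its p for Nrxn2 does not show that transcript use was alike. When the exact permutation test was applied to the share of the largest transcript in each of 3198 genes, Nrxn2 had a p of 0.0141 and an adjusted p of 0.757, and 59 genes had a p as small or smaller. There 6.10% of genes had a p under 0.05 and 0.00% passed after adjustment.

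In animals whose label carries the letter B the mean alpha share was 36.1% ± 2.17 in Fmr1-KO and 49.9% ± 7.57 in WT (n = 4 each, exact permutation p = 0.0286, the smallest this size allows). In animals lettered D it was 40.6% ± 5.91 in Fmr1-KO and 47.0% ± 4.47 in WT (n = 4 each, exact permutation p = 0.114). The labels do not say what the letters mean. These subsets, and the narrower shares that follow, draw on largely the same counts, were added after the share had been seen, and are no separate evidence for it. Restricting the share to protein-coding transcripts gave 37.7% ± 5.82 in Fmr1-KO and 47.8% ± 6.45 in WT (exact permutation p = 0.00482, n = 8 each), and Nrxn2-008 against Nrxn2-004 alone gave 34.4% ± 5.54 in Fmr1-KO and 42.0% ± 4.92 in WT (exact permutation p = 0.0148, n = 8 each). Because Nrxn2-004 and Nrxn2-008 differ at once in promoter, site 4 exon and last exon, these features cannot be told apart in the shares.

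The site 4 exon of Nrxn2 was present in transcripts with 66.6% ± 4.81 of the informative counts in Fmr1-KO and 61.6% ± 5.70 in WT libraries (difference 4.93 points, exact permutation p = 0.0839, n = 8 each), and the difference was 3.92 points without WT replicates 3 and 6. The range was 60.1% to 72.9% in Fmr1-KO and 51.5% to 68.5% in WT libraries. Among smaller Nrxn2 transcripts, the noncoding Nrxn2-009, which starts at the beta promoter, averaged 8.89 ± 3.21 CPM in Fmr1-KO against 5.51 ± 2.27 CPM in WT libraries (log2 fold change 0.70, adjusted p = 0.9999, edgeR). Protein-coding transcripts made up 95.1% ± 1.29 of Nrxn2 counts in Fmr1-KO and 94.4% ± 2.90 in WT libraries (exact permutation p = 0.574, n = 8 each).

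Nrxn3 (chr12:88722876-90334935, plus strand) encodes another neurexin. Its levels spanned 304 to 480 CPM around a median of 413 in Fmr1-KO libraries, against 300 to 485 CPM around a median of 349 in WT libraries. The ranges nearly coincided, although 7 of 8 Fmr1-KO libraries lay above the WT median. The means were 406 ± 61.7 CPM in Fmr1-KO against 367 ± 67.6 CPM in WT, or 0.14 as log2 fold change (SE 0.11, adjusted p = 0.789, edgeR).

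Nrxn3 was an almost pure alpha gene in these tables, unlike Nrxn2. Alpha transcripts held 98.2% ± 1.08 of its alpha and beta counts in Fmr1-KO and 96.3% ± 6.85 in WT libraries (exact permutation p = 0.846, n = 8 each), and 98.9% ± 0.77 in the 6 deeper WT libraries. Nrxn3-001, a protein-coding transcript with the site 4 exon and 52.9% of the gene's counts, averaged 226 ± 33.9 CPM in Fmr1-KO against 193 ± 50.5 CPM in WT libraries (log2 fold change 0.22, adjusted p = 0.9999, edgeR). That log2 fold change was 0.12 without WT replicate 3 and 0.075 without WT replicates 3 and 6. The site 4 exon was present in 81.5% ± 4.13 of the informative counts in Fmr1-KO and 78.1% ± 5.30 in WT libraries (exact permutation p = 0.187, n = 8 each). A large part of Nrxn3 fell to transcripts annotated for nonsense-mediated decay: Nrxn3-012 averaged 69.2 ± 19.6 CPM in Fmr1-KO against 72.7 ± 17.2 CPM in WT libraries, and Nrxn3-003 averaged 59.9 ± 25.8 CPM in Fmr1-KO against 49.2 ± 26.4 CPM in WT libraries. Nrxn3-003 holds the site 4 exon and Nrxn3-012 lacks it. Nrxn3-012 had 17.3% of the gene's counts, and the only other transcript counted as without the exon had 0.76%. The share without the exon is thus mostly that of a transcript annotated for decay. Protein-coding transcripts made up 62.4% ± 4.36 of Nrxn3 counts in Fmr1-KO and 60.5% ± 5.57 in WT libraries (exact permutation p = 0.469, n = 8 each).

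**Figure D3:**
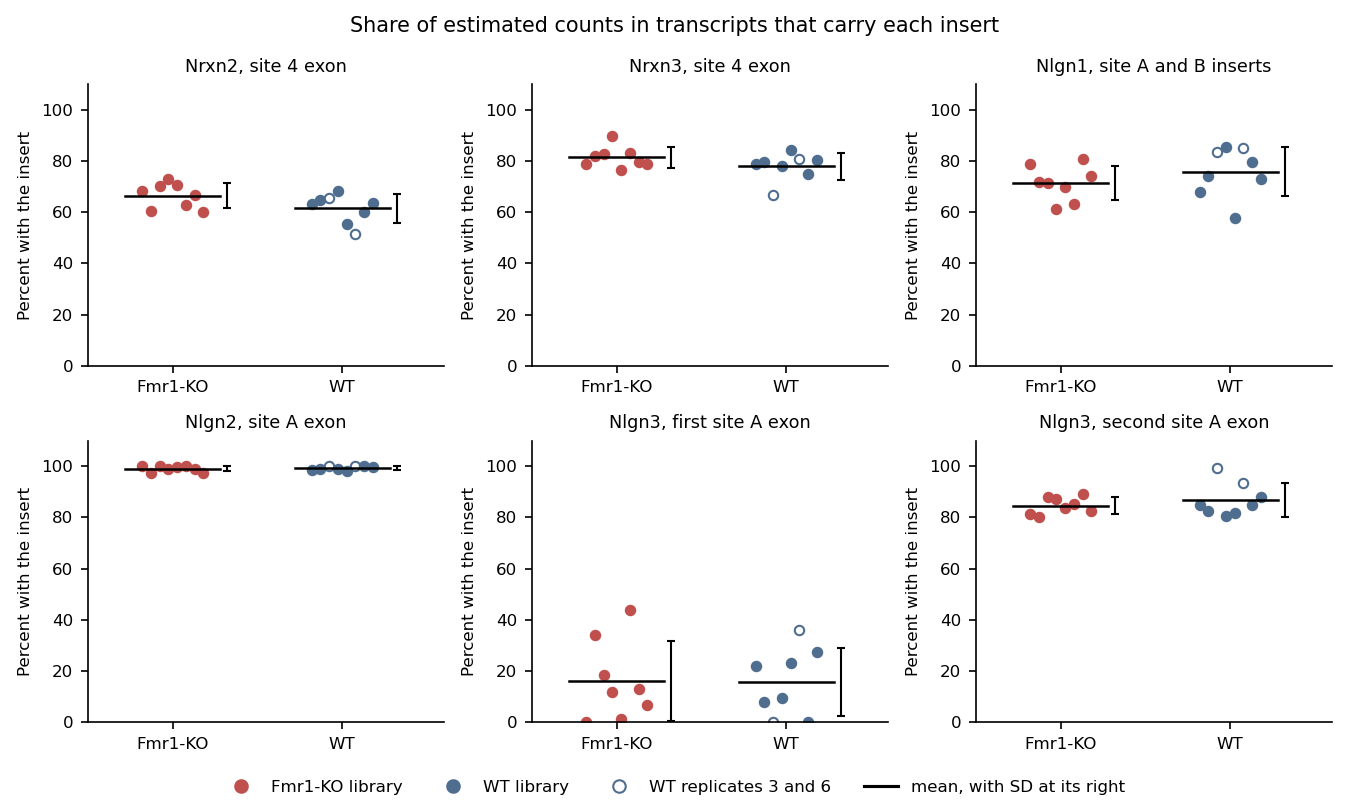
Percent of informative estimated counts in transcripts that carry each insert (vertical axes), 1 point per library, Fmr1-KO left of WT, with mean and SD. The genotypes overlap in all 6 panels, and the first Nlgn3 exon varies most between libraries, from 0.0% to 43.8% in Fmr1-KO.

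Nlgn1 (chr3:25426215-26332460, minus strand) encodes the neuroligin of excitatory synapses. It ranged from 81.2 to 124 CPM in Fmr1-KO libraries, with a median of 105, against 70.1 to 131 CPM in WT libraries, with a median of 97.7. The Fmr1-KO libraries lay within the WT range. The means were 104 ± 12.4 CPM in Fmr1-KO against 98.0 ± 21.7 CPM in WT (log2 fold change 0.091, SE 0.13, adjusted p = 0.896, edgeR). Transcripts with the site A exon also carry the site B insert in this annotation, so a single share covers both. It was 71.5% ± 6.77 of informative counts in Fmr1-KO and 75.9% ± 9.65 in WT libraries (exact permutation p = 0.305, n = 8 each). On TPM it was 55.3% ± 9.26 in Fmr1-KO and 61.2% ± 12.8 in WT libraries. The inserts are carried by Nlgn1-001 and Nlgn1-201, with 34.9% and 34.8% of the gene's counts. Nlgn1-001 averaged 38.1 ± 11.5 CPM in Fmr1-KO against 38.5 ± 18.5 CPM in WT libraries (log2 fold change −0.0046, adjusted p = 0.9999, edgeR). Nlgn1-201 averaged 38.0 ± 12.4 CPM in Fmr1-KO against 36.5 ± 12.2 CPM in WT libraries. Nlgn1-002, which has neither insert, averaged 22.5 ± 7.06 CPM in Fmr1-KO against 17.7 ± 6.88 CPM in WT libraries.

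Nlgn2 (chr11:69823122-69837784, minus strand), the neuroligin of inhibitory synapses, had the smallest fold change of the 7 genes in the edgeR fit. It ran from 402 to 531 CPM with a median of 471 in Fmr1-KO libraries, against 412 to 520 CPM with a median of 467 in WT libraries. The ranges nearly coincided, with 4 Fmr1-KO libraries on each side of the WT median. The means were 466 ± 40.4 CPM in Fmr1-KO against 468 ± 41.1 CPM in WT (log2 fold change −0.0071, SE 0.078, adjusted p = 0.986, edgeR). Nlgn2-001, which carries the site A exon, had 93.5% of the gene's counts and averaged 458 ± 48.4 CPM in Fmr1-KO against 464 ± 49.4 CPM in WT libraries (log2 fold change −0.020, adjusted p = 0.9999, edgeR). The site A exon was in 99.1% ± 1.08 of informative counts in Fmr1-KO and 99.2% ± 0.77 in WT libraries (exact permutation p = 0.711, n = 8 each). On TPM that share was 92.4% ± 8.41 in Fmr1-KO and 93.5% ± 6.45 in WT libraries. The only annotated transcript without the exon has 784 bases, against 5568 in Nlgn2-001, so these shares do not measure a full-length form without it.

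Nlgn3 (chrX:101299168-101325963, plus strand) ranged from 215 to 288 CPM around a median of 246 in Fmr1-KO libraries, against 218 to 310 CPM around a median of 261 in WT libraries. The ranges overlapped over most of their length. The means were 251 ± 27.5 CPM in Fmr1-KO against 262 ± 32.2 CPM in WT (log2 fold change −0.061, SE 0.091, adjusted p = 0.903, edgeR). Its main transcript Nlgn3-001, with the second site A exon alone, averaged 178 ± 42.9 CPM in Fmr1-KO against 186 ± 42.3 CPM in WT libraries (log2 fold change −0.067, adjusted p = 0.9999, edgeR). Nlgn3-003, with neither exon, averaged 40.1 ± 6.97 CPM in Fmr1-KO against 36.6 ± 21.0 CPM in WT libraries. The second exon was in 84.6% ± 3.32 of informative counts in Fmr1-KO and 86.9% ± 6.54 in WT libraries (exact permutation p = 0.418, n = 8 each). On TPM that share was 52.5% ± 6.44 in Fmr1-KO and 59.3% ± 17.9 in WT libraries. Nlgn3-003, without the exon, has 1852 bases, against 8465 in Nlgn3-001. The first exon, found in Nlgn3-004 alone, was in 16.0% ± 15.5 of informative counts in Fmr1-KO and 15.7% ± 13.3 in WT libraries (exact permutation p = 0.966, n = 8 each), a spread between libraries as large as the mean. Protein-coding transcripts held nearly all counts of the 3 neuroligin genes, at 97.0% ± 5.02 in Fmr1-KO and 96.3% ± 3.75 in WT libraries for Nlgn1, 99.4% ± 0.58 in Fmr1-KO and 99.7% ± 0.38 in WT libraries for Nlgn2, and 99.9% ± 0.17 in Fmr1-KO and 99.4% ± 0.81 in WT libraries for Nlgn3 (exact permutation p = 0.742, 0.230 and 0.114, n = 8 each). The annotated gene Gm21986 shares 3823 exonic bases with Nlgn3 on the same strand and had 0.0 to 88.2 estimated counts in Fmr1-KO and 0.0 to 87.6 in WT libraries, so the division of reads between them is uncertain.

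Lrrtm1 (chr6:77242689-77257791, plus strand) encodes a postsynaptic ligand of neurexins. It had 114 CPM at the lowest, 147 at the median and 186 at the highest Fmr1-KO library, against 104, 140 and 147 CPM in WT libraries. The WT libraries ended at the Fmr1-KO median, and 4 Fmr1-KO libraries lay on each side of the WT median. The means were 147 ± 26.7 CPM in Fmr1-KO against 133 ± 16.5 CPM in WT (log2 fold change 0.14, SE 0.11, adjusted p = 0.780, edgeR). Its largest transcript Lrrtm1-001 averaged 92.3 ± 24.4 CPM in Fmr1-KO against 63.3 ± 41.2 CPM in WT libraries (log2 fold change 0.56, adjusted p = 0.9999, edgeR), and Lrrtm1-002, of 2518 bases against 2541 in Lrrtm1-001, averaged 32.1 ± 23.0 CPM in Fmr1-KO against 51.1 ± 34.8 CPM in WT libraries. Single libraries put all counts of this pair on 1 of them. Lrrtm1-001 and Lrrtm1-002 had 0 and 123 CPM in WT replicate 3, 126 and 0 CPM in WT replicate 6, and 105 and 0 CPM in Fmr1-KO replicate 8. The division of reads between the pair is thus uncertain. The share of protein-coding transcripts was 81.2% ± 9.57 in Fmr1-KO and 81.9% ± 6.86 in WT libraries (exact permutation p = 0.860, n = 8 each). Lrrtm1 lies inside Ctnna2 on the opposite strand without sharing exonic bases.

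Lrrtm2, on chromosome 18, encodes the related ligand LRRTM2 and has 1 transcript in the tables. Its level was 41.3 CPM at the lowest, 58.9 at the median and 76.1 at the highest Fmr1-KO library, against 51.4, 66.6 and 84.2 CPM in WT libraries. The ranges overlapped, and 7 of 8 Fmr1-KO libraries lay below the WT median. The means were 59.6 ± 9.43 CPM in Fmr1-KO against 67.0 ± 9.53 CPM in WT (log2 fold change −0.15, SE 0.12, adjusted p = 0.793, edgeR), and 64.1 ± 7.57 CPM in the 6 deeper WT libraries. Lrrtm2 shares 95 exonic bases with Ctnna1 on the opposite strand. Nrxn2 shares 682 exonic bases with Slc22a12 and 207 with Gm14964 on the opposite strand, which had at most 6.14 and 7 estimated counts in Fmr1-KO and 12 and 3 in WT libraries. Nrxn3 shares 439 with Gm37980, which had at most 7.71 in Fmr1-KO and 3.71 in WT libraries. Whether the counting used strand is not given in the sources used here, and the same holds for the 1229 bases that Nlgn1 shares with the antisense gene A830092H15Rik, which had at most 27.9 estimated counts in Fmr1-KO and 17.6 in WT libraries.

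**Figure D4:**
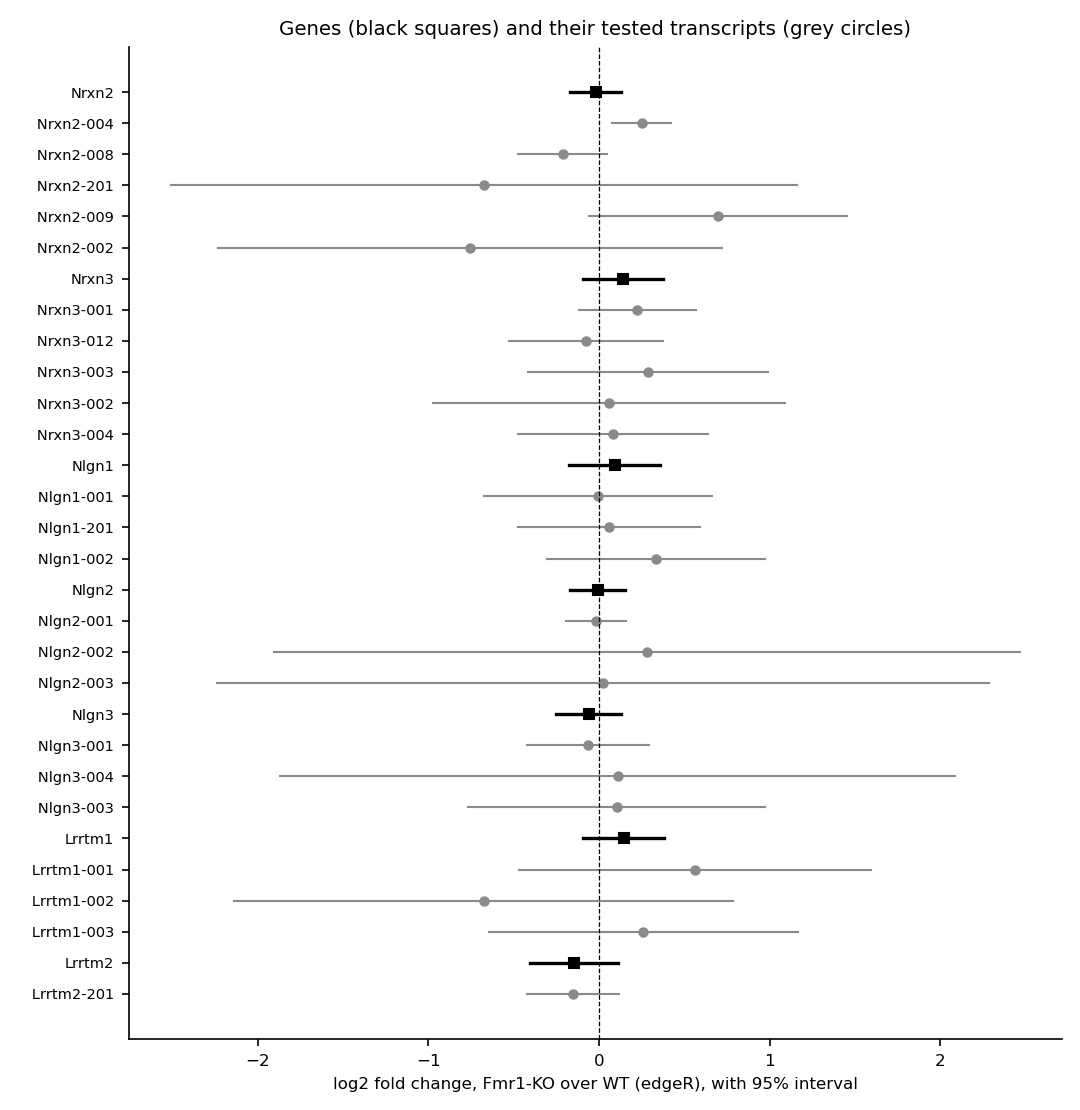
Log2 fold change, Fmr1-KO over WT, of the 7 genes (black squares) and their 23 tested transcripts (grey circles) with 95% intervals from edgeR, on a linear log2 axis. All gene intervals cross 0, and among the transcripts the interval of Nrxn2-004 alone stays above 0, before adjustment.

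Across the 16 libraries, the genes whose centred log2(CPM + 1) values lay nearest to a member were taken as its closest in pattern. They were Mpped1 and B3gat1 for Nrxn2 at root mean square distances of 0.082 and 0.087, and Nr3c2 for Nlgn2 at 0.098. The SD of Nrxn2 and Nlgn2 themselves on that scale was 0.097 and 0.12, so a gene that did not vary at all would lie about as near, and these distances show no shared pattern. The SD of the other 5 genes ran from 0.16 for Nlgn3 to 0.26 for Nlgn1. For Nlgn1, Nrxn3 was the second closest of all tested genes at 0.14, after Clasp1 at 0.14, where the median distance of all genes was 0.50. The closest genes are picked for a small distance and so lie below that median by construction. Whether Nlgn1 and Nrxn3 share a pattern was not tested. Nrxn3 itself was closest to March6 and Dync1h1 at 0.099 and 0.10, and Nlgn3 to Sptbn1 and Scrn1 at 0.096 and 0.10. The closest to Lrrtm1 were Ociad2 and Dmtn at 0.16 each, and to Lrrtm2 Krit1 and Clcn3 at 0.15 each.

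The wider set of partners showed no called change either: 0 genes of the 5 lists passed in edgeR, DESeq2 or limma-voom. Of 22 listed ligands, co-receptors and relatives of the neurexins, 16 were tested, 9 with positive and 7 with negative fold changes, and 0 had an unadjusted p under 0.05 (edgeR; 0 by DESeq2 and 1 by limma-voom). The smallest p was that of Mdga1, which encodes an anchored protein known to block the binding of neuroligins to neurexins, at 317 ± 32.2 CPM in Fmr1-KO against 275 ± 41.8 CPM in WT libraries (log2 fold change 0.20, adjusted p = 0.630, edgeR). Its log2 fold change was 0.13 without WT replicates 3 and 6. Clstn1, for calsyntenin 1, averaged 1467 ± 76.0 CPM in Fmr1-KO against 1367 ± 88.1 CPM in WT libraries, and Nxph1, for the alpha-neurexin ligand neurexophilin 1, averaged 15.9 ± 7.49 CPM in Fmr1-KO against 22.0 ± 6.71 CPM in WT libraries.

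Of 36 other synaptic adhesion genes, 35 were tested, 22 with positive and 13 with negative fold changes. By edgeR 3 had an unadjusted p under 0.05, a proportion near the 7.89% of all genes tested, and the counts were 5 by DESeq2 and 4 by limma-voom. Flrt2, for a ligand of latrophilins, averaged 93.3 ± 6.01 CPM in Fmr1-KO against 76.7 ± 12.5 CPM in WT libraries (log2 fold change 0.26, adjusted p = 0.590, edgeR). Cadm4 averaged 88.8 ± 15.1 CPM in Fmr1-KO against 112 ± 24.6 CPM in WT libraries (log2 fold change −0.33), and Cadm1 75.8 ± 11.2 CPM in Fmr1-KO against 95.4 ± 21.7 CPM in WT libraries (log2 fold change −0.30, or −0.17 without WT replicates 3 and 6). Both encode homophilic and heterophilic adhesion molecules of the immunoglobulin superfamily.

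Of 22 intracellular partners, 21 were tested, 11 with positive and 10 with negative fold changes. By edgeR 3 had an unadjusted p under 0.05, beside 7.89% of all genes tested, and the counts were 4 by DESeq2 and 3 by limma-voom. Of the 3 by edgeR, the scaffold genes Dlg1 and Shank3 had log2 fold changes of −0.33 and −0.21 with adjusted p of 0.617 and 0.622 (edgeR). Without WT replicates 3 and 6 these log2 fold changes were −0.33 and −0.16. Of 10 genes for proteases that shed these proteins and for their regulators, 8 were tested, 4 in each direction. DESeq2 gave 2 of them and limma-voom 1 an unadjusted p under 0.05. By edgeR 1 had such a p, beside the same 7.89% of all genes tested. It was Timp2, a metalloprotease inhibitor, at 22.8 ± 8.79 CPM in Fmr1-KO against 37.2 ± 17.5 CPM in WT libraries (log2 fold change −0.69, or −0.48 without WT replicates 3 and 6, adjusted p = 0.581 over all 16 libraries, edgeR).

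Among RNA-binding proteins known to regulate neurexin splicing, all 12 listed genes were tested, 10 had positive and 2 negative fold changes, and the median log2 fold change was 0.11, or 0.19 without WT replicates 3 and 6. Of them 4 had an unadjusted p under 0.05, beside 7.89% of all genes tested, but 0 passed after adjustment (edgeR). Each of the 4 was higher in Fmr1-KO, a direction read off after the test. Of all genes, 3.61% had such a p and were higher. DESeq2 gave 4 genes of this list an unadjusted p under 0.05, and so did limma-voom. Rbfox1, for a neuronal splicing factor, averaged 538 ± 36.4 CPM in Fmr1-KO against 451 ± 47.5 CPM in WT libraries (log2 fold change 0.25, SE 0.077, adjusted p = 0.515, edgeR). Khdrbs1, for the splicing factor Sam68, which is known to promote skipping of the neurexin site 4 exon, averaged 92.6 ± 12.3 CPM in Fmr1-KO against 75.0 ± 14.8 CPM in WT libraries (log2 fold change 0.29, adjusted p = 0.617, edgeR). Rbfox2 averaged 389 ± 41.5 CPM in Fmr1-KO against 338 ± 41.8 CPM in WT libraries (log2 fold change 0.20, adjusted p = 0.622, edgeR). Without WT replicates 3 and 6 the log2 fold changes of Rbfox1, Khdrbs1 and Rbfox2 were 0.22, 0.24 and 0.18.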

How the data were processed

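CA1 RNA was extracted with Maxwell 16 LEV chemistry and read on a HiSeq instrument from Illumina, per the labels' protocols. FastQC, cutadapt, kallisto and DESeq2 are named without versions in the submitters' processing notes. Which transcript index and build served for the estimates is not given in the sources used here. The deposited estimated counts are the authors' model-based assignment of reads to transcripts, and the deposited TPM are the authors' length-scaled abundances within each library.

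Estimated counts were summed by gene symbol and rounded. Genes and transcripts were tested over all 16 libraries by edgeR 4.0.16 in R 4.3.3 (quasi-likelihood, TMM, filterByExpr with a minimum count of 10, no covariate, Benjamini-Hochberg threshold 0.05), and transcript use with diffSpliceDGE. Each share was tested between genotypes by exact permutation (two-sided, SciPy 1.17.1), and 14 shares were compared, of which 1 had p under 0.05. Of these, 8 were planned and 6, the insert shares, were added once the annotation had been read. The site B share of Nlgn1 was merged with that of site A because the same transcripts carry both, after its values had been seen. Informative counts are those of transcripts that either hold an insert or span its position without it. Alpha transcripts start more than 1000 bases before the first exon of the beta form. Exon structures and sequences came from GENCODE M21 (GRCm38), in which 46 of 48 transcripts had the length given in the files.

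The named genes are the 7 members, Fmr1, members' transcripts with at least 5 CPM or 10% of the gene's counts, the 3 smallest p of each list and the 2 nearest genes of each member. Fold changes are given for the largest tested transcript of each gene and for the Nrxn2 transcripts with the 3 smallest p, a choice made after the values were seen. Ccnd2 is named as the other gene that passed. Some genes and sequences that the rule takes in are not reported here. The members, lists and tests were chosen with earlier results of these data known. Replicates were numbered in label order, which pairs no animals. The labels give each animal a number and a letter, and up to 2 animals of a genotype share a number. Scripts were tested on simulated data. Alternatives included DESeq2 1.42.0, limma 3.58.1, other scalings and filters, TPM, the letter as a covariate and leaving out libraries. The depth of 515103 to 3275003 estimated counts limits what could be seen.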

Additional observations from a re-analysis of the deposited data

Results flagged for a closer look

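In 60 groups of 8 libraries, the highest or lowest library was compared with its nearest neighbour, and 3 stood apart by Dixon's 95% criterion, where chance gives about 1 in 20 groups. For Fmr1, WT replicate 7 had 99.7 CPM, and the next WT library had 66.0 CPM. For Nlgn1, Fmr1-KO replicate 7 had 85.1% of its counts in protein-coding transcripts (95% Wilson interval 80.8% to 88.6%), and the next Fmr1-KO library had 96.2%. For Nrxn3, WT replicate 3, a shallow library, had an alpha share of 79.5% (95% Wilson interval 74.0% to 83.8%), and the next WT library had 97.5%. The intervals were taken on rounded estimated counts and cover counting error only.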

How the results depend on the processing

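Of 828 values of 43 results under other settings, 743 were counted as unchanged. Fold changes and shares among them kept their direction and their side of the threshold, and counts of genes or transcripts stayed equal or close. The settings include a threshold of 0.1, under which a fold change cannot move. None of the 7 genes passed under any of the settings run, and for the log2 fold changes, shares and counts that changed the cause was not tested. Genes past the threshold numbered 2, against 8 with DESeq2, 7 with limma-voom, 5 without a filter, 0 and 0 on log2(TPM + 1) and log2(TPM + 0.1), and 1 on length-scaled counts. Transcripts past it numbered 1, against 15 with DESeq2 and 1 to 2 with a library left out. The TPM fits moved the median log2 fold change of all genes to 0.55 and 0.62, and relative to it the 7 genes lay between −0.16 and 0.21 and between −0.19 and 0.15.

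Fold changes near 0 changed sign. Nrxn2 had log2 fold changes of 0.014 with limma-voom, 0.029 with library totals, 0.60 and 0.61 in the TPM fits and 0.0083 without WT replicates 3 and 6. Nlgn2 had 0.035 with library totals, 0.0085 without a filter, 0.0067 with at least 1 CPM in 8 libraries, 0.73 and 0.74 in the TPM fits and 0.13 on length-scaled counts. In the TPM fits Nlgn3 had 0.55 and 0.57, and Lrrtm2 had 0.39 and 0.44. Transcript Nlgn1-001 had 0.072 with library totals, 0.0087 without a filter, 0.0063 with the CPM minimum and 0.021 with the letter as covariate, and Nlgn2-001 had 0.016 with library totals and 0.0049 without a filter. With each library left out in turn, the log2 fold change ran from −0.041 to 0.016 for Nrxn2, from −0.035 to 0.025 for Nlgn2, from −0.14 to 0.12 for Nlgn1-001, from −0.044 to 0.019 for Nlgn2-001 and from −0.12 to 0.018 for Nlgn3-001.

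Without WT replicates 3 and 6 the difference in share, in percentage points, was −0.748 for Nrxn3 alpha, −0.479, −0.168 and 1.25 for protein-coding Nrxn2, Nrxn3 and Lrrtm1, and 0.0861 and 0.936 for site A of Nlgn2 and the second exon of Nlgn3, and Nrxn3 beta transcripts differed by 3.55 CPM. On TPM it was −0.258 for protein-coding Nrxn3, −0.482 for the first Nlgn3 exon and 4.66 for site 4 of Nrxn2 (exact permutation p = 0.0429). The Nrxn2 alpha share differed by −6.45 points in animals lettered D (exact permutation p = 0.114, n = 4 each). With a library left out in turn, the difference ran from −3.19 to 1.35 for protein-coding Lrrtm1, from −0.287 to 2.43 for Nlgn1, from −0.117 to 1.31 for Nrxn2, from −0.539 to 2.36 for Nrxn3 alpha, from −0.341 to 0.0613 for site A of Nlgn2, from −3.65 to 3.22 for the first Nlgn3 exon, from 3.48 to 5.91 for site 4 of Nrxn2 and from −6.21 to 2.86 CPM for Nrxn3 beta. No paired analysis was possible because the genotypes share no animal numbers in the labels.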
